A study of Mus musculus with 12 samples.

Results

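Glutathione transferases, glutathione peroxidases and 2 enzymes of the same antioxidant system were followed in the transcriptome of sorted endothelial cells from the adult mouse brain cortex. The 10 genes were Gsta4, Gstm1, Gstm5, Gstt1, Gstp1, Gpx1, Gpx4, Gpx6, Gclc and Nqo1, out of 21638 genes in the deposited count table. They were taken by symbol, each symbol stood on 1 row, and all 10 passed the filter on low counts (a mean of at least 10 per library) and were tested. The list was chosen by measured values: it was drawn up because the counts of Gsta4 differed between the beta-catenin GOF and Hdac2 ECKO groups. Values of that contrast are therefore given for all 10 genes as a description, and nothing is supported with them.

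There were 12 libraries in 4 groups of 3. The mutant mice carried Cdh5CreERT2, a tamoxifen-inducible Cre recombinase driven by the VE-cadherin promoter, which is active in endothelium throughout the body and not only in brain. Hdac2 ECKO was Hdac2lox/lox:Cdh5CreERT2, an endothelial deletion of a histone deacetylase gene. Ezh2 ECKO was Ezh2lox/lox:Cdh5CreERT2, an endothelial deletion of the gene for the Polycomb histone methyltransferase. The beta-catenin GOF group was Ctnnb1lox/lox:Cdh5CreERT2, labelled as constitutive activation of beta-catenin, the transcriptional partner in canonical Wnt signalling. These mice received 5 doses of tamoxifen at 75 mg/kg, and brains were taken 2 months later. The alleles carried by the WT mice, and whether they received tamoxifen, are not given in the sources used here. Cells were sorted as CD31-positive and negative for CD41 and CD45, a gate that selects endothelium over platelets and leukocytes. Whether a library held 1 animal or a pool is not stated either, so p-values measure the spread between these libraries.

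Glutathione is a tripeptide thiol that cells hold at high concentration. Glutamate-cysteine ligase, whose catalytic subunit is Gclc, carries out the rate-limiting step of its synthesis. Glutathione transferases couple it to electrophiles such as lipid aldehydes and drugs, and glutathione peroxidases use it to reduce hydrogen peroxide and lipid hydroperoxides. Many of these genes are targets of Nrf2, encoded by Nfe2l2, a transcription factor that binds antioxidant response elements together with small Maf proteins. Brain capillary endothelium is rich in such detoxifying enzymes and is regarded as a metabolic part of the blood-brain barrier.

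The 3 peroxidases differ at the catalytic residue, which is the part of the sequence that ties them to selenium supply. Selenocysteine is encoded by TGA, which is a stop codon elsewhere. The stretches below are coding sequence around the catalytic codon, from the GENCODE M21 transcript with the longest annotated coding sequence (GRCm38), 5′ to 3′, with the catalytic codon in capitals. In Gpx1 it is codon 47, in Gpx4 codon 129 and in Gpx6 codon 73, counted from the start codon of that transcript. The Gpx1 and Gpx4 codons were found as the 1 in-frame TGA of each reading frame, and the Gpx6 codon by alignment to Gpx1.
Gpx1: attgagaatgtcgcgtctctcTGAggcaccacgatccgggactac
Gpx4: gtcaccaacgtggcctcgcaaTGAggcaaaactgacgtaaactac
Gpx6: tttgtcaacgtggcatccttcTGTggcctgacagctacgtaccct
Gpx1 and Gpx4 have TGA at this place, and mouse Gpx6 has TGT, a cysteine codon. The codons lie at chr9:108339451-108339453 (Gpx1), chr10:80054737-80054739 (Gpx4) and chr13:21313777-21313779 (Gpx6), all on the plus strand. Over the aligned coding bases, Gpx1 was 61.4% identical to Gpx6 and 58.4% identical to Gpx4.

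Gstm1 and Gstm5 belong to the same gene cluster on chromosome 3 and lie on opposite strands. Gstm1 passed as lower in Hdac2 ECKO against WT and Gstm5 did not pass, which is not a test of a difference between them. With the dependence on gene length removed, Gstm1 did not pass and Gstm5 passed as higher. Their upstream sequences are shown because of those first calls. In addition, 1 of them holds a match to the antioxidant response element core TGACNNNGC, searched on both strands. The promoters searched cover 250 bases before to 50 after a start site (RefSeq, GRCm38.p6), and 8 of the 10 genes matched, with 12 promoters. Gsta4 and Gclc had no promoter to search, so no motif count here covers them. Sequence further upstream was not searched for any gene. The motif was in 1 of the 12, that of Gstm5, as TGACCACGC beginning 42 bases before the start site, a share near that of all 32851 promoters, 12.4%. The 250 bases before the start site are printed on the gene's strand, with the match in capitals. Gstm1 has a second RefSeq start site, at chr3:108017818, whose upstream sequence overlaps the one shown and is not printed.
Gstm5, chr3:107895604-107895853, plus strand: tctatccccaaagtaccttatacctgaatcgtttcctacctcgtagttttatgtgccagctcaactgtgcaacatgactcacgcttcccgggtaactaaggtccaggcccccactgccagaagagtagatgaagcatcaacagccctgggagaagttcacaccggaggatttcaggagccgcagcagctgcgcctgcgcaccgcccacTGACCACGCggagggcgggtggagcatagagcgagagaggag
Gstm1, chr3:108017974-108018223, minus strand: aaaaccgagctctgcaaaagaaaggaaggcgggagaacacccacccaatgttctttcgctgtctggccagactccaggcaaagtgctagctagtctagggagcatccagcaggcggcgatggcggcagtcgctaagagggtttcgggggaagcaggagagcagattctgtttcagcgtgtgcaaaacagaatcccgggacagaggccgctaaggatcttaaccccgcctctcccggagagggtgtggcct
The TCF/LEF core CTTTGAT, searched the same way, was in 0 of the 12 promoters and in 3.73% of all promoters. The GC box GGGCGG was in 7 of the 12 promoters, which belong to 5 genes (Gpx1, Gpx4, Gstm5, Gstp1 and Nqo1), and in 35.7% of all promoters; Gpx4 alone has 4 of the 12. A match is a description of the letters in the window and does not show a bound site.

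Library totals ranged from 24781070 to 36109975 counts, with 13922 to 17091 genes detected. The 10 endothelial markers summed to 4608 to 6655 counts per 1000000 (CPM) in the 12 libraries, and none of them was at 0 throughout a group. The targeted genes gave a weak check of the labels, since counts per gene do not resolve the deleted exons. Mean Hdac2 was 96.5 CPM in its deletion group against 129 CPM in WT, with overlapping values, and the difference did not pass either. For Ezh2 the mean was 8.92 CPM in the libraries that carry its deletion label against 6.75 CPM in WT, with overlapping values, and the difference did not pass. Its mean was thus not lower under that label, so these libraries are called Ezh2 ECKO-labelled throughout. Mean Ctnnb1 was 583 CPM in beta-catenin GOF against 654 CPM in WT. Log2 fold changes followed gene length across the 12577 genes tested, with a Spearman rho of 0.44 for Hdac2 ECKO against WT, 0.29 for the Ezh2 ECKO-labelled libraries against WT and 0.14 for beta-catenin GOF against WT; genes are not independent replicates. Gene length, here and below, is the feature length given with the counts and not the genomic span of the gene. The trend bears on the 10 genes because 9 of them, all except Gclc, are short by this measure. These 9 have a length of 1266 to 1724 bases and fall in the shortest 2516 of the genes tested.

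In WT endothelium the 10 genes spanned a wide range. On a scale of mean CPM per kilobase of gene length, Gpx1 was highest at 1150, rank 41 of all 21638 genes. Gstm1 followed at 660, Gsta4 at 551, Gpx4 at 548 and Gstp1 at 489. Neighbours in this order overlapped in their WT values from Gpx1 down to Gstp1, so the order of neighbours within WT is not settled. Gpx1 did lie above Gsta4, Gpx4 and Gstp1 without overlap, at 796 or more against at most 769. Gstm5 stood apart below all of these genes at 108. Gstt1 came next at 9.08, then Gclc at 5.14 and Nqo1 at 4.45, whose values overlapped, and Gpx6 was lowest at 0.56. The abundant transcripts thus included an alpha, a mu and a pi class transferase and the cytosolic and phospholipid-hydroperoxide peroxidases.

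**Figure D1:**
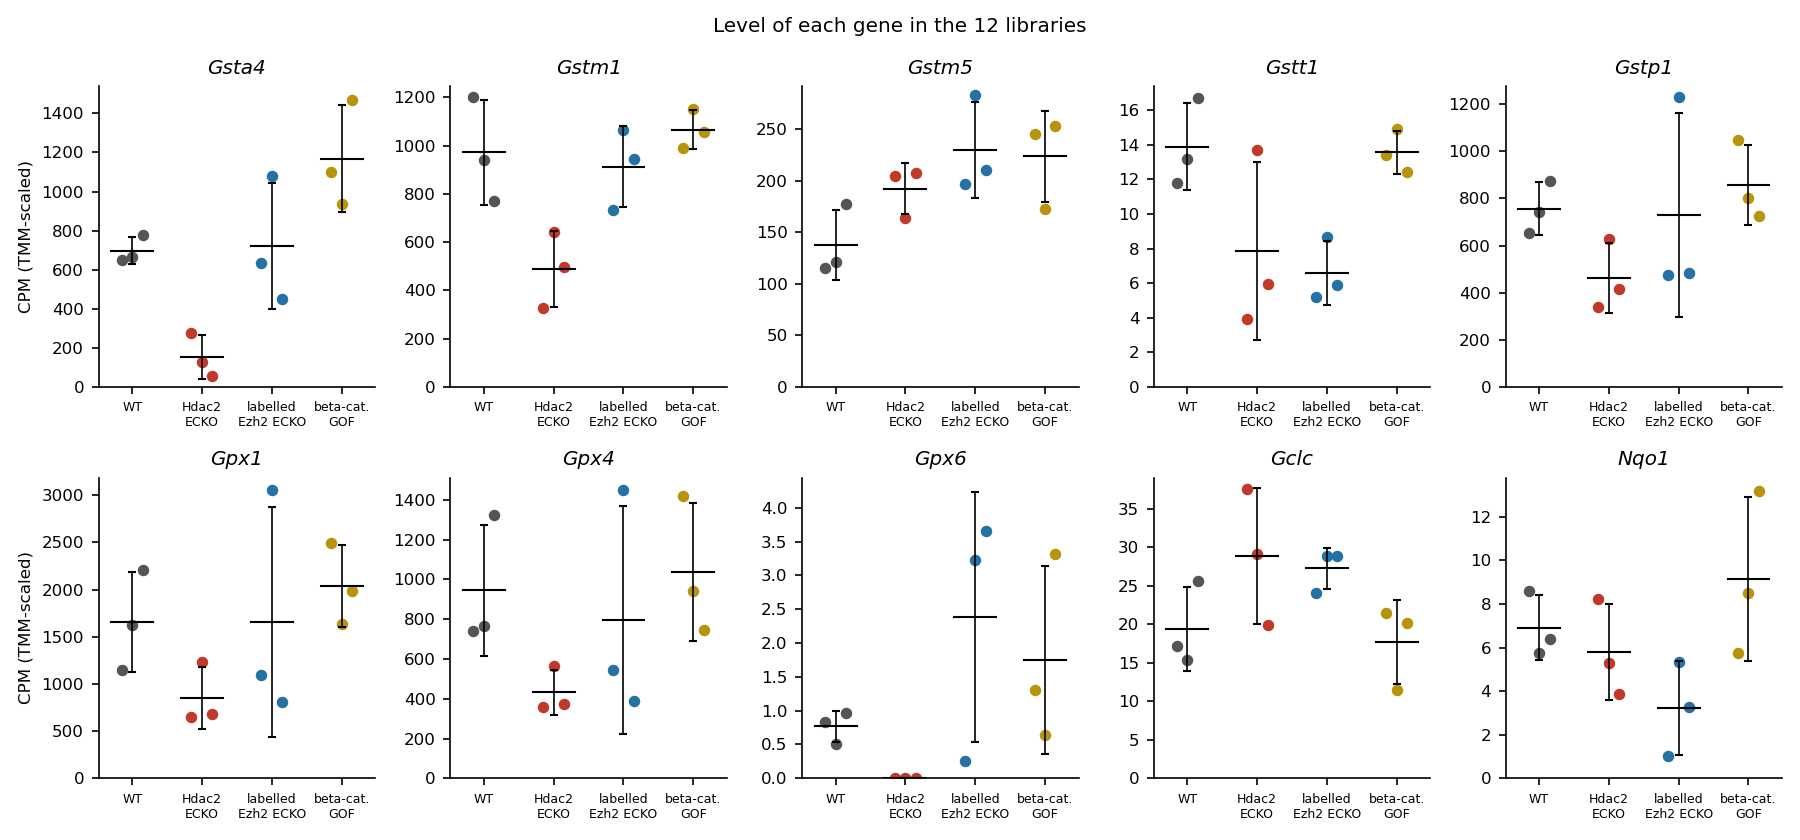
Level of each of the 10 genes in every library, in CPM of the TMM-scaled total (y axis, starting at 0, a separate scale for each gene), by group; points are libraries, the horizontal line is the group mean and the bar its SD (n = 3). Gsta4 lies at 55.5 to 274 CPM in Hdac2 ECKO and at 450 CPM or more in every other library, and Gpx6 is at 0 in all 3 Hdac2 ECKO libraries.

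Gsta4 encodes an alpha class transferase known for conjugating 4-hydroxynonenal, an aldehyde released by lipid peroxidation. The gene (ENSMUSG00000032348.6) lies at chr9:78182774-78209349 on the plus strand of GRCm38. It stood at 651, 664 and 779 CPM in WT, at 274, 128 and 55.5 CPM in Hdac2 ECKO, at 633, 1081 and 450 CPM in the Ezh2 ECKO-labelled libraries, and at 1100, 938 and 1469 CPM in beta-catenin GOF. All 3 Hdac2 ECKO libraries were below the other 9, and all 3 beta-catenin GOF libraries were above WT. The means were 698 ± 70.5, 152 ± 112, 721 ± 325 and 1169 ± 272 CPM in that order of groups (SD, n = 3 each).

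Between beta-catenin GOF and Hdac2 ECKO, the contrast that chose Gsta4, its difference was 2.94 on the log2 scale. Gsta4 fell in Hdac2 ECKO against WT by 2.19 on the log2 scale (SE 0.46, edgeR adjusted p = 0.0323). The Hdac2 ECKO libraries are the same ones that entered the choice of the gene, so this p describes the fit and is not independent support. In these bulk samples, fewer cells that express the gene and less of its RNA per cell cannot be told apart. Against WT, Gsta4 stood apart by 0.05 (SE 0.44, edgeR adjusted p = 0.959) in the Ezh2 ECKO-labelled libraries and by 0.74 (SE 0.44, edgeR adjusted p = 0.889) in beta-catenin GOF, and neither passed the threshold. With the dependence on gene length removed, the difference between Hdac2 ECKO and WT was −1.66 (edgeR adjusted p = 0.0433). The call was lost when some libraries were left out: the adjusted p was 0.112 without WT replicate 1, 0.0911 without WT replicate 2, 0.0506 without Hdac2 ECKO replicate 1 and 0.130 without Hdac2 ECKO replicate 3, with log2 fold changes of −2.93 to −1.82 over all 6 omissions (edgeR). In that comparison the number of genes called among all tested was itself 0 without WT replicate 1, WT replicate 2 or Hdac2 ECKO replicate 3, and 1 without Hdac2 ECKO replicate 1.

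The mu class was represented by Gstm1 and Gstm5, whose coding sequences were 73.2% identical over the aligned bases. Gstm1 (ENSMUSG00000058135.12, chr3:108012255-108017973, minus strand) encodes a cytosolic transferase of broad substrate range. It stood at 1203, 942 and 772 CPM in WT, at 327, 643 and 498 CPM in Hdac2 ECKO, at 732, 1064 and 943 CPM in the Ezh2 ECKO-labelled libraries, and at 990, 1150 and 1055 CPM in beta-catenin GOF. The Hdac2 ECKO libraries were the lowest 3 of the 12. Gstm1 fell in Hdac2 ECKO against WT by 0.99 (log2, SE 0.28, edgeR adjusted p = 0.0431). That call was lost with the gene length trend removed, at −0.43 (edgeR adjusted p = 0.319), with scaling by library size alone, at −0.73 (edgeR adjusted p = 0.0852), in a fit of only these groups (edgeR adjusted p = 0.0520), and with all Gstm rows summed, at −0.72 (edgeR adjusted p = 0.0781). It was also lost without WT replicate 1 (0.160), WT replicate 2 (0.109), Hdac2 ECKO replicate 1 (0.182) or Hdac2 ECKO replicate 3 (0.149), all adjusted p from edgeR.

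Gstm5 (ENSMUSG00000004032.10, chr3:107895821-107898686, plus strand) encodes a mu class transferase and is overlapped by an antisense gene, 4933431E20Rik. Whether counting used strand is not given in the sources used here, so reads of the pair may not be separated. Its WT libraries held 115, 121 and 177 CPM, and those of Hdac2 ECKO 205, 164 and 208 CPM, which overlap. It stood at 197, 283 and 210 CPM in the Ezh2 ECKO-labelled libraries, all above WT, and at 245, 173 and 253 CPM in beta-catenin GOF. Its log2 fold changes against WT were 0.48 (SE 0.26, adjusted p = 0.197), 0.74 (SE 0.26, adjusted p = 0.105) and 0.70 (SE 0.26, adjusted p = 0.730) in these 3 groups, and none passed the edgeR threshold. In Hdac2 ECKO it passed with the gene length trend removed, at 1.03 (edgeR adjusted p = 0.0389), under scaling by library size alone and in the fit with sample quality weights. It passed in the Ezh2 ECKO-labelled libraries without WT replicate 3, at 0.96 (edgeR adjusted p = 0.0413). The mean of Gstm5 was above its WT mean in each mutant group, while Gstm1 averaged 489 CPM in Hdac2 ECKO against 972 CPM in WT. Across the 12 libraries, which share these groups, log2 levels of Gstm1 and Gstm5 correlated with Pearson's r of −0.11, given as a description.

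Gstp1 (ENSMUSG00000060803.6, chr19:4035407-4037985, minus strand) encodes the pi class transferase, which also binds signalling kinases. Its reads are hard to tell from those of Gstp2: the coding sequences were 98.1% identical and 57.7% of its 75-base windows occur in Gstp2 as well. Gstp1 stood at 654, 741 and 876 CPM in WT, at 339, 627 and 416 CPM in Hdac2 ECKO, at 477, 1231 and 485 CPM in the Ezh2 ECKO-labelled libraries, and 1050, 800 and 726 CPM in beta-catenin GOF. The Hdac2 ECKO values lay below WT without overlap, but the difference of −0.72 (SE 0.36) did not pass (edgeR adjusted p = 0.172). With the gene length trend removed it was −0.12 (edgeR adjusted p = 0.775), and with the 3 Gstp rows summed it was −0.67 (edgeR adjusted p = 0.202). It passed with sample quality weights, at −0.81 (limma adjusted p = 0.00620). Replicate 2 of the Ezh2 ECKO-labelled libraries was the highest of all 12.

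Gstt1 (ENSMUSG00000001663.10, chr10:75783813-75798584, minus strand) encodes a theta class transferase that acts on small halogenated compounds. It stood at 11.8, 13.2 and 16.7 CPM in WT, at 3.9, 13.7 and 5.96 CPM in Hdac2 ECKO, at 5.18, 8.66 and 5.89 CPM in the Ezh2 ECKO-labelled libraries, and 13.4, 14.9 and 12.4 CPM in beta-catenin GOF. Every Ezh2 ECKO-labelled library was below every WT and beta-catenin GOF library. The log2 difference was −1.08 from WT (SE 0.41, edgeR adjusted p = 0.125) and 1.05 for beta-catenin GOF against the Ezh2 ECKO-labelled libraries (SE 0.40, edgeR adjusted p = 0.324), and neither passed. In Hdac2 ECKO the value of −0.82 (SE 0.40) did not pass (edgeR adjusted p = 0.168), but without Hdac2 ECKO replicate 2, the library at 13.7 CPM, it was −1.54 and passed (edgeR adjusted p = 0.0181). It also passed with sample quality weights, at −1.10 (limma adjusted p = 0.00667). With the gene length trend removed it was −0.28 (edgeR adjusted p = 0.640).

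**Figure D2:**
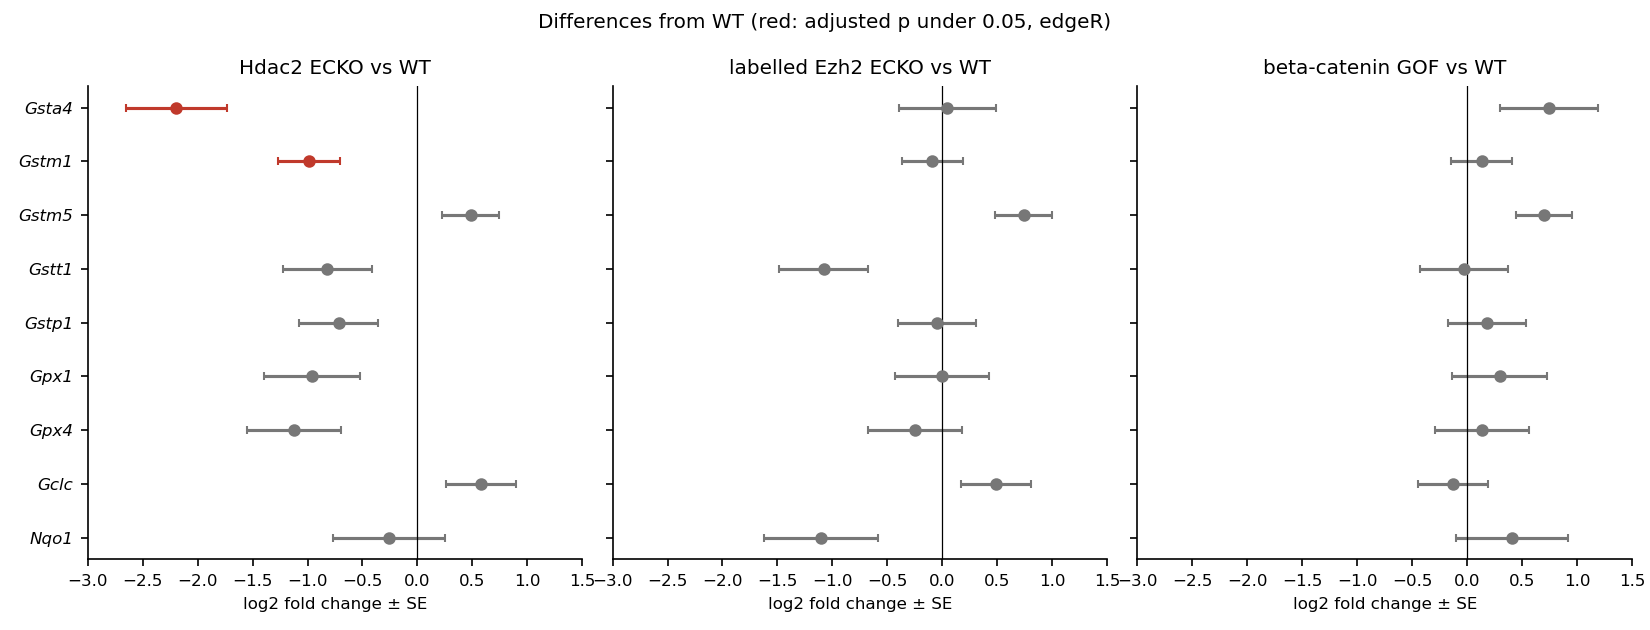
Log2 fold change (x axis, bars are SE) against WT of 9 genes in Hdac2 ECKO, the Ezh2 ECKO-labelled libraries and beta-catenin GOF, from edgeR over 12 libraries; red points have an adjusted p under 0.05. Gpx6 is left out because it is at 0 in Hdac2 ECKO. Gsta4 and Gstm1 are the red points, both in Hdac2 ECKO, and no point is red in the other panels.

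Among the peroxidases, Gpx1 and Gpx4 were abundant and varied together. Gpx1 (ENSMUSG00000063856.7, chr9:108338903-108340343, plus strand) encodes the cytosolic enzyme that reduces hydrogen peroxide. It stood at 1146, 1623 and 2206 CPM in WT, at 651, 1231 and 677 CPM in Hdac2 ECKO, at 1099, 3057 and 811 CPM in the Ezh2 ECKO-labelled libraries, and 2497, 1632 and 1988 CPM in beta-catenin GOF. Values of Hdac2 ECKO and WT overlapped through Hdac2 ECKO replicate 2, and the difference of −0.96 (SE 0.43) did not pass (edgeR adjusted p = 0.139). With the gene length trend removed it was −0.40 (edgeR adjusted p = 0.415). It passed with no filter on low counts (edgeR adjusted p = 0.0332) and with sample quality weights (limma adjusted p = 0.00284).

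Gpx4 (ENSMUSG00000075706.10, chr10:80047166-80056439, plus strand) encodes the enzyme that reduces phospholipid hydroperoxides and guards cells against ferroptosis. It stood at 741, 767 and 1326 CPM in WT, at 361, 564 and 376 CPM in Hdac2 ECKO, at 544, 1451 and 391 CPM in the Ezh2 ECKO-labelled libraries, and 1421, 944 and 748 CPM in beta-catenin GOF. All 3 Hdac2 ECKO values were below WT, with a difference of −1.12 (SE 0.43) that did not pass (edgeR adjusted p = 0.0902). With the gene length trend removed it was −0.49 (edgeR adjusted p = 0.341). It passed in DESeq2, with no filter on low counts, with sample quality weights and in a fit of only these groups. Replicate 2 of the Ezh2 ECKO-labelled libraries held the highest Gpx1, Gpx4 and Gstp1 values of its group, and the group SD reached 1222 CPM on a mean of 1655 CPM for Gpx1. Over the 12 libraries, log2 levels of Gpx1, Gpx4 and Gstp1 correlated pairwise with Pearson's r of 0.96 to 0.97, given as a description of genes that share libraries, depth and short length.

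Gpx6 (ENSMUSG00000004341.8, chr13:21312125-21319624, plus strand) encodes a peroxidase known from the olfactory epithelium. It was rare, with 24, 16 and 27 counts in the WT libraries, 8, 82 and 102 counts in the Ezh2 ECKO-labelled ones and 38, 24 and 114 counts in beta-catenin GOF. No count was found in any of the 3 Hdac2 ECKO libraries. A count of 0 allows up to 3 fragments per library. Since the values look like counts of both mates, 3 fragments were taken as 6 counts, or 0.196 to 0.227 CPM there, which covers counting error only. Against that floor per library, with a mean of 0.210 CPM, Gpx6 was at least 3.65-fold lower in Hdac2 ECKO than in WT, where it averaged 0.767 ± 0.234 CPM (SD, n = 3), and this comparison passed (edgeR adjusted p = 0.0338). It was at least 11.3-fold lower than in the Ezh2 ECKO-labelled libraries (edgeR adjusted p = 0.113, not passed), and at least 8.30-fold lower than in beta-catenin GOF. The latter bound rests on beta-catenin GOF replicate 3, at 3.31 CPM, and is 4.59-fold without it. All these bounds use group means. That against the Ezh2 ECKO-labelled libraries, whose replicate 1 held 0.259 CPM, is 8.28-fold without their replicate 3. That against WT is 3.18-fold without WT replicate 3. The call against WT was lost without WT replicate 1 (edgeR adjusted p = 0.116), WT replicate 2 (0.0911), Hdac2 ECKO replicate 1 (0.157) or Hdac2 ECKO replicate 3 (0.130), and in limma on log2(CPM + 1), where the pseudocount exceeds every WT value (limma adjusted p = 0.214).

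Gclc (ENSMUSG00000032350.9, chr9:77754535-77794485, plus strand) was the one gene with a longer feature length, at 3766 bases. It stood at 17.2, 15.3 and 25.6 CPM in WT, at 37.6, 29.1 and 19.9 CPM in Hdac2 ECKO, at 24.1, 28.8 and 28.8 CPM in the Ezh2 ECKO-labelled libraries, and 21.4, 11.5 and 20.2 CPM in beta-catenin GOF. The means in Hdac2 ECKO and in the Ezh2 ECKO-labelled libraries were above WT with overlapping values, at a log2 difference of 0.58 (SE 0.32, edgeR adjusted p = 0.215) in the former group and 0.49 (SE 0.32, edgeR adjusted p = 0.350) in the latter. Gclc in beta-catenin GOF was below the Ezh2 ECKO-labelled libraries without overlap, at −0.62 (SE 0.32, edgeR adjusted p = 0.410). None of these passed.

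Nqo1 (ENSMUSG00000003849.8, chr8:107388225-107403206, minus strand) encodes a quinone reductase that serves as a standard readout of Nrf2. It stood at 8.6, 5.73 and 6.41 CPM in WT, at 8.21, 5.28 and 3.88 CPM in Hdac2 ECKO, at 1.04, 5.35 and 3.27 CPM in the Ezh2 ECKO-labelled libraries, and 5.73, 8.49 and 13.2 CPM in beta-catenin GOF. The Ezh2 ECKO-labelled libraries lay below WT and below beta-catenin GOF without overlap. Nqo1 differed by −1.11 from WT (SE 0.52, edgeR adjusted p = 0.201) and by 1.51 between beta-catenin GOF and the Ezh2 ECKO-labelled libraries (SE 0.52, edgeR adjusted p = 0.299), and neither passed. Without Ezh2 ECKO replicate 2, both passed, at −1.69 (edgeR adjusted p = 0.0464) and 2.09 (edgeR adjusted p = 0.0446). In Hdac2 ECKO, Nqo1 differed by −0.26 from WT (SE 0.51, edgeR adjusted p = 0.754) and by 0.40 with the gene length trend removed, so no direction is given for it.

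Counted together, 3 of the 10 genes (Gsta4, Gstm1 and Gpx6) passed in Hdac2 ECKO against WT, all lower, where 9.2% of all genes tested passed and 5.38% passed as lower. Among these 2516 shortest genes, which hold 9 of the 10, 10.8% passed as lower. Values of 5 genes (Gsta4, Gstm1, Gstp1, Gpx4 and Gpx6) were below WT without overlap, against 18.2% of all genes tested and 36% of these shortest genes. The median log2 fold change of the 10 was −0.89, against 0.10 over all genes and −0.52 over these shortest genes. These figures include Gsta4, which was chosen through the same Hdac2 ECKO libraries, so its part in them is a description and not independent support. With the gene length trend removed 3 genes again passed, where 4.86% of all genes did, but they were Gsta4 and Gpx6 as lower and Gstm5 as higher. Scaling by library size alone gave the same 3 genes, where 14.5% of all genes passed; it moved the median of all genes tested from 0.10 to 0.34 and the calls from 480 higher and 677 lower to 1469 higher and 357 lower. None of the 10 passed without WT replicate 1, WT replicate 2, Hdac2 ECKO replicate 1 or Hdac2 ECKO replicate 3, and 4 passed without Hdac2 ECKO replicate 2, where 17.6% of all genes did.

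**Figure D3:**
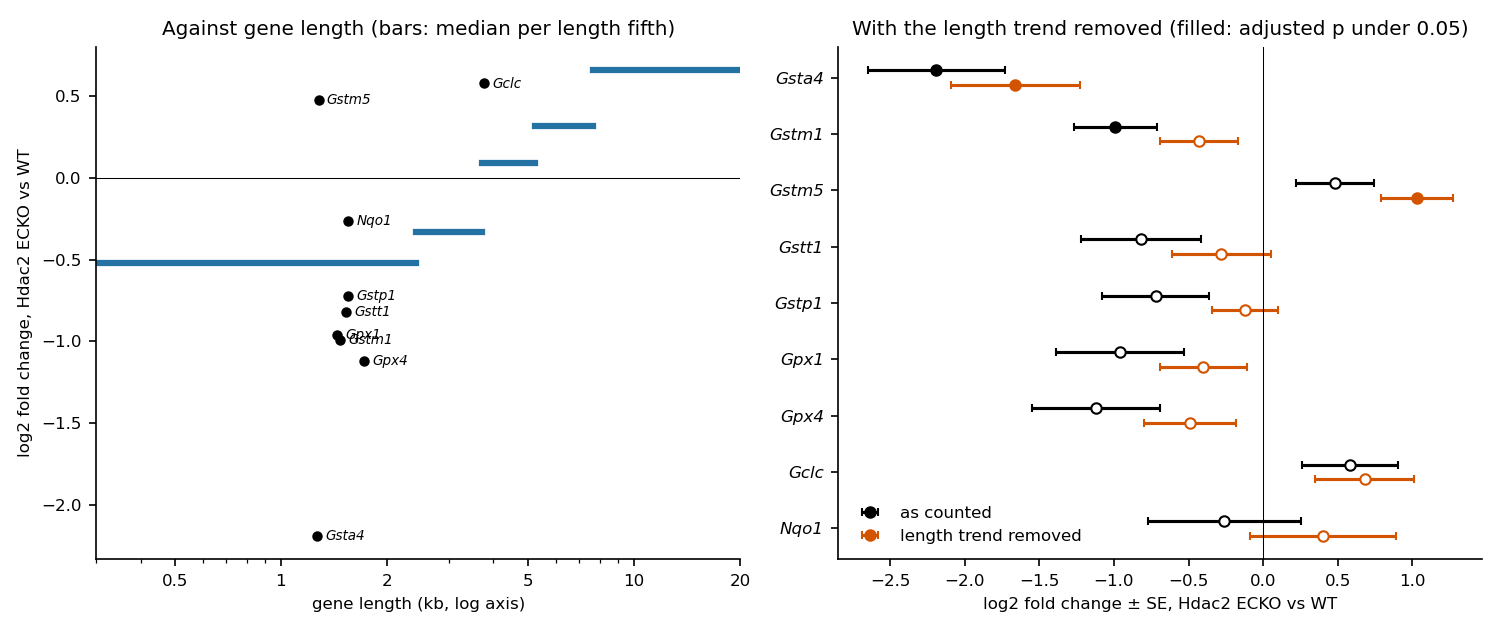
Left, log2 fold change between Hdac2 ECKO and WT (y axis) against gene length in kb (feature length, log axis, drawn from 0.3 to 20 kb) for 9 genes, with blue bars at the median of each of 5 equal length classes of all genes tested. Right, the same fold changes ± SE as counted (black) and with the length trend removed (orange), filled where the edgeR adjusted p is under 0.05; Gsta4 is filled in both, Gstm1 only as counted and Gstm5 only with the trend removed.

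In the Ezh2 ECKO-labelled libraries against WT, 0 of the 10 genes passed in edgeR, where 1.03% of all genes tested passed. Of the 10, 3 had an unadjusted p under 0.05 (Gstm5, Gstt1 and Nqo1), against 24.7% of all genes, and the same 3 did not overlap with WT, against 21.9% of all genes. The median log2 fold change of the 10 was −0.03, against 0.05 over all genes. DESeq2 called 0 of the 10, and the fit with sample quality weights called these 3, where it called 29.8% of all genes. In beta-catenin GOF against WT, 0 of the 10 passed in edgeR, where 0% of all genes passed and 6.07% had an unadjusted p under 0.05. Among the 10, Gstm5 had an unadjusted p under 0.05, and Gsta4 alone did not overlap with WT, against 12.7% of all genes. The beta-catenin GOF libraries entered the choice of Gsta4, so that is a description only. DESeq2 called none of the 10 there.

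Between the mutants, 0 of the 10 passed in edgeR for Hdac2 ECKO against the Ezh2 ECKO-labelled libraries, where 0.0239% of all genes passed, and 4 (Gsta4, Gstm1, Gpx1 and Gpx6) had an unadjusted p under 0.05, against 8.19% of all genes. Gsta4 differed by −2.24 (SE 0.46, adjusted p = 0.174) and Gstm1 by −0.90 (SE 0.28, adjusted p = 0.476). With Gpx6, these 3 lay lower in Hdac2 ECKO without overlap, against 5.42% of all genes that did so. DESeq2 called Gsta4 and Gpx6, where it called 0.779% of all genes, and Gsta4 passed in edgeR without Hdac2 ECKO replicate 1, at −2.96 (adjusted p = 0.0457). The Hdac2 ECKO libraries entered the choice of Gsta4, so its part in these counts and calls is a description. For beta-catenin GOF against the Ezh2 ECKO-labelled libraries, 0 of the 10 passed in edgeR, where 0.0636% of all genes passed, and 2 (Gstt1 and Nqo1) had an unadjusted p under 0.05, against 13.2% of all genes. Values of 3 of the 10 (Gclc, Gstt1 and Nqo1) did not overlap, against 16.7% of all genes; DESeq2 called 0. For beta-catenin GOF against Hdac2 ECKO, which chose the list, the log2 differences are a description only. Beside Gsta4 at 2.94, they were 1.12 for Gstm1, 0.22 for Gstm5, 0.90 for Gstp1, 0.79 for Gstt1, 1.26 for both Gpx1 and Gpx4, 0.66 for Nqo1 and −0.71 for Gclc, and Gpx6 has the bound given above. There 6 genes were higher in beta-catenin GOF without overlap (Gsta4, Gstm1, Gstp1, Gpx1, Gpx4 and Gpx6), as were 16.1% of all genes, and nothing is read from that count. The comparisons share libraries, so their counts are not separate evidence.

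Summed markers of other cells differed between the groups, and not only in Hdac2 ECKO. Of 10 pericyte and smooth muscle markers, 4 passed as higher in Hdac2 ECKO against WT (Myh11, Pdgfrb, Cspg4 and Rgs5), where 3.82% of all genes tested did. Calls of markers in this comparison were also lost in 3 of 6 omissions of 1 library, where 0 of all genes passed (edgeR). The 10 markers summed to 129 to 315 CPM in Hdac2 ECKO and 67.3 to 123 CPM in WT. Their sum was 56.7 to 72.9 CPM in the Ezh2 ECKO-labelled libraries and 121 to 384 CPM in beta-catenin GOF. Of 5 red blood cell markers, 1 (Alas2) passed as lower in Hdac2 ECKO, where 5.38% of all genes tested did. The 5 markers summed to 400 to 21652 CPM in Hdac2 ECKO and 36121 to 61357 CPM in WT. Their sum was 2518 to 6662 CPM in the Ezh2 ECKO-labelled libraries and 510 to 35358 CPM in beta-catenin GOF. Neither list had a marker at 0 throughout a group. Gpx1 and Gpx4 are also known from red blood cells. The 8 astrocyte markers summed to 50.7 to 76.3 CPM in Hdac2 ECKO against 24.3 to 36.2 CPM in WT. Their sum also lay above WT without overlap in the Ezh2 ECKO-labelled libraries, at 44.2 to 79.8 CPM, with S100b at 0 there. In beta-catenin GOF it did so at 37.9 to 54.1 CPM, with Aqp4 at 0. Only 4 of the 8 were tested, and 0 passed against WT in edgeR. Of these 4, 3 were positive and 1 negative in Hdac2 ECKO and in the Ezh2 ECKO-labelled libraries. In beta-catenin GOF, 2 were positive and 2 negative, so the sums do not describe every marker. The 10 microglia and macrophage markers summed to 45.9 to 62.7 CPM in Hdac2 ECKO, with Tmem119 at 0 there, against 73.0 to 99.5 CPM in WT. Their sum was 57.0 to 92.4 CPM in the Ezh2 ECKO-labelled libraries. In beta-catenin GOF it was 59.4 to 83.9 CPM, with Cx3cr1, Aif1, Tmem119 and C1qb at 0. The part of these cells in the values of the 10 genes was not tested.

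The rest of the pathway was described through 6 lists. Calls of list genes in Hdac2 ECKO against WT share the limit given for Gsta4. In 3 of 6 omissions of 1 library, 0 of all genes passed there (edgeR), so these calls were lost as well. For the list genes no value with the gene length trend removed is given. Of 14 genes of glutathione synthesis and turnover, 12 were tested and 0 passed in any of the 3 comparisons with WT (edgeR). In Hdac2 ECKO, 2 had an unadjusted p under 0.05, as did 33.1% of all genes: Slc7a11, the cystine carrier that feeds glutathione synthesis, at −1.83 (SE 0.78, adjusted p = 0.120), and Oplah, the 5-oxoprolinase, at −0.84 (SE 0.39, adjusted p = 0.145). Among the Ezh2 ECKO-labelled libraries, 5 did, against 24.7% of all genes. The smallest p belonged to Gss, glutathione synthetase, at −1.56 (SE 0.39, edgeR adjusted p = 0.0588), and Lap3, an aminopeptidase, at −1.60 (SE 0.47, edgeR adjusted p = 0.0787). In beta-catenin GOF, 0 did, against 6.07% of all genes. Lap3 stood at −0.87 there (edgeR adjusted p = 0.876) and Chac2, which degrades glutathione, at 0.64 (edgeR adjusted p = 0.882). The median of the list was −0.28, −0.46 and 0.13 in these groups, against 0.10, 0.05 and 0.01 over all genes.

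Of 23 other transferases, 18 were tested and 0 passed in the comparisons with WT (edgeR). The median was −0.62 in Hdac2 ECKO, −0.49 in the Ezh2 ECKO-labelled libraries and −0.07 in beta-catenin GOF, against 0.10, 0.05 and 0.01 over all genes, and 12 of the 18 are among the shortest 2516 genes. In these groups 5, 6 and 2 genes had an unadjusted p under 0.05, against 33.1%, 24.7% and 6.07% of all genes. In Hdac2 ECKO the smallest p belonged to Gstm2, a further mu class gene, at −0.73 (SE 0.27, adjusted p = 0.0855), and Ltc4s, leukotriene C4 synthase, at −1.10 (SE 0.47, adjusted p = 0.122). In the Ezh2 ECKO-labelled libraries, Gstt3 stood at −1.35 (SE 0.33) and Gstz1, which acts in tyrosine breakdown, at −1.41 (SE 0.35), both with an adjusted p of 0.0561. In beta-catenin GOF the smallest p belonged to Mgst1, a microsomal transferase, at −0.59 (SE 0.25, adjusted p = 0.785), and Gstm6 at 3.94 (SE 1.85, adjusted p = 0.821). Of 5 other peroxidases, 3 were tested and 0 passed in the comparisons with WT (edgeR), none with an unadjusted p under 0.05 there. Gpx7, a peroxidase of the endoplasmic reticulum, stood at −0.69 in Hdac2 ECKO (SE 0.39, adjusted p = 0.220) and 0.56 in beta-catenin GOF (SE 0.39, adjusted p = 0.910), Gpx3 at −3.91 in Hdac2 ECKO (SE 1.90, adjusted p = 0.163), and Gpx8 at −1.44 in the Ezh2 ECKO-labelled libraries (SE 0.70, adjusted p = 0.214).

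Among 20 peroxiredoxins, thioredoxins, glutaredoxins, superoxide dismutases and catalase, all tested, 2 fell in Hdac2 ECKO against WT and 0 rose, where 5.38% of all genes passed as lower. At an unadjusted p under 0.05 there were 7 of the 20, against 33.1% of all genes. Prdx6, a peroxiredoxin that uses glutathione to reduce phospholipid hydroperoxides, averaged 59.7 ± 15.3 CPM in Hdac2 ECKO against 139 ± 42.6 CPM in WT, and fell by 1.22 (SE 0.32, edgeR adjusted p = 0.0388). Glrx3, a glutaredoxin of iron-sulphur cluster handling, was at 93.1 ± 29.0 CPM and 203 ± 26.2 CPM, and fell by 1.12 (SE 0.34, edgeR adjusted p = 0.0488; SD, n = 3 for all). The median of the list was −0.57, against 0.10 over all genes. Without overlap, 9 of its 20 genes were below WT, against 18.2% of all genes and 36% of the shortest 2516, which hold 4 of the 20. In the other groups 0 passed: Prdx6 stood at −1.03 in the Ezh2 ECKO-labelled libraries (SE 0.32, edgeR adjusted p = 0.0859), and Glrx2 at 0.62 in beta-catenin GOF (SE 0.30, edgeR adjusted p = 0.833). At an unadjusted p under 0.05 there were 3 and 0 genes in those groups, against 24.7% and 6.07% of all genes.

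Of 23 regulators and targets of Nrf2, all tested, 1 rose and 3 fell in Hdac2 ECKO against WT, where 3.82% of all genes passed as higher and 5.38% as lower. At an unadjusted p under 0.05 there were 11 of the 23, against 33.1% of all genes. Mafg, a small Maf partner of Nrf2 and of its competitor Bach1, averaged 23.9 ± 2.03 CPM in Hdac2 ECKO against 8.60 ± 1.28 CPM in WT (SD, n = 3 each), and rose by 1.48 (SE 0.35, edgeR adjusted p = 0.0338). Ftl1, the ferritin light chain, fell by 1.54 (SE 0.41, edgeR adjusted p = 0.0393), from 3555 ± 419 CPM in WT to 1223 ± 489 CPM. Ephx1, microsomal epoxide hydrolase, fell by 1.51 (SE 0.41, edgeR adjusted p = 0.0402), and Cbr1, a carbonyl reductase, by 1.23 (SE 0.34, edgeR adjusted p = 0.0417). The list thus held calls in both directions, and its median was −0.35, against 0.10 over all genes. In the Ezh2 ECKO-labelled libraries, 0 passed in edgeR and 5 had an unadjusted p under 0.05, against 24.7% of all genes. Ephx1 stood at −1.57 (SE 0.41, edgeR adjusted p = 0.0663) and Hmox1, heme oxygenase, at −2.34 (SE 0.64, edgeR adjusted p = 0.0699). In beta-catenin GOF, 0 passed in edgeR and 2 had an unadjusted p under 0.05, against 6.07% of all genes. These were Mafg at 1.00 (SE 0.34, edgeR adjusted p = 0.692) and G6pdx, which supplies NADPH, at −1.15 (SE 0.41, edgeR adjusted p = 0.724).

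Of 8 genes of selenoprotein synthesis, all tested, 1 rose in Hdac2 ECKO against WT: Sepsecs, which completes selenocysteine on its transfer RNA, was at 13.7 ± 3.00 CPM and 6.20 ± 0.689 CPM (SD, n = 3 each), and rose by 1.15 (SE 0.29, edgeR adjusted p = 0.0360). Beside it, Trnau1ap stood at −1.01 (SE 0.33, edgeR adjusted p = 0.0585) and Secisbp2, which reads the selenocysteine insertion signal, at 0.96 (SE 0.32, edgeR adjusted p = 0.0623). In the Ezh2 ECKO-labelled libraries, Lrp8, a receptor for selenoprotein P, stood at 0.83 (SE 0.25, edgeR adjusted p = 0.0849). In beta-catenin GOF, Secisbp2 stood at 0.79 (SE 0.32, edgeR adjusted p = 0.776). The list had 0 calls in these last groups. At an unadjusted p under 0.05 it had 4, 3 and 1 genes in the 3 groups, against 33.1%, 24.7% and 6.07% of all genes, and 3.82% of all genes rose in Hdac2 ECKO.

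**Figure D4:**
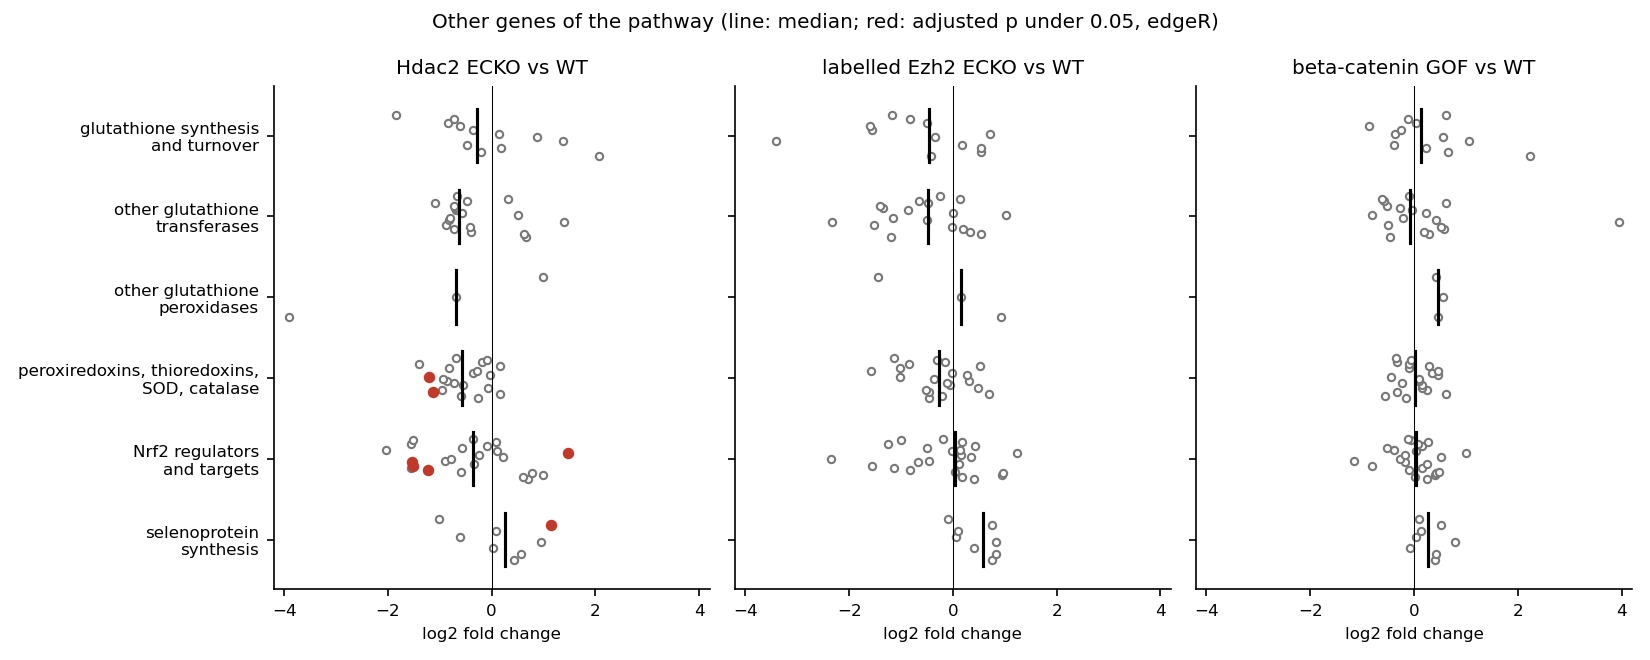
Log2 fold change against WT (x axis) of the tested genes of 6 lists in Hdac2 ECKO, the Ezh2 ECKO-labelled libraries and beta-catenin GOF; each circle is a gene, the black line the median of the list, and red circles have an edgeR adjusted p under 0.05. The 7 red circles are all in Hdac2 ECKO: Prdx6, Glrx3, Mafg, Ftl1, Ephx1, Cbr1 and Sepsecs.

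The 5 genes whose log2 levels over the 12 libraries were most like those of Gsta4 were Rpl29 (Pearson's r 0.91, Spearman's rho 0.90), Mef2b (0.91 and 0.82), Gimap9 (0.88 and 0.90), Slc35g2 (0.87 and 0.62) and Hilpda (0.87 and 0.90). These are descriptions with no test, since the libraries share groups, and the 5 genes have lengths of 1103 to 1642 bases, against 1266 bases for Gsta4. Rpl29, a ribosomal protein gene, averaged 72.6 CPM in Hdac2 ECKO against 163 CPM in WT. Hilpda, a lipid droplet protein gene, averaged 38.0 CPM against 58.4 CPM. Of the other 9 genes in the list, Gpx1 came closest to Gsta4 with r of 0.73, then Gstm1 with 0.71 and Gpx4 with 0.70, and Gstm5 was at 0.15 and Gclc at −0.26.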

How the data were processed

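RNA of 12 libraries was measured with SMART-Seq v4 PLUS, which amplifies full-length cDNA and adds no molecular identifiers, and paired-end sequencing, per the labels' protocols. The submitters' processing notes name FastQC, cutadapt, STAR, featureCounts, DESeq2 and mm10, without versions or roles. The authors deposited 1 table of counts per gene and library. Its title calls the values normalized, but they are whole numbers with totals that differ between libraries and an excess of even numbers (79.5% to 84.0% of values from 10 to 50), as when both mates are counted, and they were analysed as counts. Gene positions matched GENCODE M21 on GRCm38 for 99.1% of rows; coordinates are counted from 1.

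edgeR 4.0.16 (R 4.3.3) fitted 1 quasi-likelihood model to the 12 libraries with TMM scaling, for the 12577 genes whose counts averaged at least 10. P-values were adjusted by Benjamini-Hochberg over all genes within each comparison, with a threshold of 0.05. The SE was derived from the F statistic, and CPM are per TMM-scaled total. The gene length trend was removed as a lowess offset per library. Alternatives used DESeq2 1.42.0 and limma 3.58.1. The test was checked on simulated counts. Replicates within a group differed beyond sampling noise. Between Hdac2 ECKO and the Ezh2 ECKO-labelled libraries, deviations of like-numbered replicates correlated with r of 0.13 to 0.43 over the 3 numbers, from the data alone. Unlike numbers ranged from −0.3 to 0.21 there and reached 0.28 between Hdac2 ECKO and WT. Whether sharing is tied to the number in that comparison of mutants is thus not settled. No label ties the numbers to a shared day or litter.

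The 10 genes, the lists and the tests were chosen with earlier results of these data known. The text names all 10, up to 3 genes per list, comparison and direction that passed or else those with the smallest p, and the 5 genes most like Gsta4; markers of other cells that passed were named after their values were seen.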

Additional observations from a re-analysis of the deposited data

How the results depend on the processing

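The cause of each change was not tested, except where fewer genes or libraries enter by construction. In the comparisons Hdac2 ECKO vs WT (A), Ezh2 ECKO-labelled vs WT (B), beta-catenin GOF vs WT (C), Hdac2 ECKO vs Ezh2 ECKO-labelled (D), beta-catenin GOF vs Ezh2 ECKO-labelled (E) and beta-catenin GOF vs Hdac2 ECKO (F), 1157, 129, 0, 3, 8 and 9 of all genes passed, and 3, 0, 0, 0, 0 and 1 of the 10 genes. F chose the list, so its counts of the 10 describe the fits and support nothing. Calls of Gsta4 in A and D use the same Hdac2 ECKO libraries, so they are not independent support.

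DESeq2 gave 2497, 1271, 38, 98, 144 and 533 genes, with 4, 2 and 4 of the 10 in A, D and F. No filter on low counts gave 2279, 1367, 157, 199, 359 and 978, with 5, 2 and 5 of the 10 in A, D and F. Sample quality weights gave 5374, 3743, 26, 11, 1466 and 3339, with 8, 3, 1, 3 and 7 of the 10 in all but C. limma on log2(CPM + 1) gave 348, 7, 11 and 17 in B to E, with 2 of the 10 in A and 1 in D. In the same comparisons B to E, limma on log2(CPM + 0.1) gave 266, 1, 7 and 16. A mean count of at least 50 gave 219 in B, with 2 of the 10 in A, and median-ratio scaling gave 76 in B. Library size alone gave 1826, 30, 14 and 4 in A, B, E and F. A fit of only the groups compared gave 17 in B and 0 of the 10 in F. Removing the length trend gave 611, 13 and 1 in A, E and F, with 0 of the 10 in F.

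No label pairs the replicate numbers. The fit with the replicate number as a block gave 1832, 536 and 13 genes in A, B and E and changed no call among the 10; there Gsta4 turned to 0.00 in B. Deviations of like numbers correlated between −0.25 and 0.21 outside D, and unlike numbers reached 0.28 in A.

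Differences near 0 turned sign. In Ezh2 ECKO-labelled vs WT, Gsta4 was −0.04 in both limma fits and −0.23 with quality weights; Gpx1 was 0.00 in DESeq2 and with median-ratio scaling. With the length trend removed there, Gstm1, Gstp1, Gpx1 and Gpx4 were 0.25, 0.19, 0.14 and 0.02; Nqo1 was 0.40 in Hdac2 ECKO vs WT, Gstt1 0.00 in beta-catenin GOF vs WT, Gstm5 0.06 in D and Gstm1 −0.11 in E. In beta-catenin GOF vs WT, Gstt1 was 0.04 with library size alone and 0.06 with quality weights. In E, Gstm5 was 0.01 under both, and Gpx6 0.24 with quality weights, which gave Gclc −0.16 in D. All Gstm rows summed, in place of Gstm5, gave −0.72 in Hdac2 ECKO, where the call of Gstm1 is lost, and −0.01 in the Ezh2 ECKO-labelled libraries; Gstm1 dominates that sum.

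Leaving out 1 library gave 0 to 2220, 2 to 2328, 0 to 4, 1 to 3, 1 to 731 and 0 to 541 genes, and 0 to 4, 0 to 1, 0 to 0, 0 to 1, 0 to 1 and 0 to 4 of the 10. It turned the sign of small differences: in Ezh2 ECKO-labelled vs WT for Gsta4 (−0.37 to 0.28), Gstm1 (−0.23 to 0.09), Gstp1 (−0.66 to 0.16), Gpx1 (−0.80 to 0.31) and Gpx4 (−1.01 to 0.08). In beta-catenin GOF vs WT it did so for Gstm1 (−0.01 to 0.31), Gstt1 (−0.13 to 0.12), Gpx4 (−0.16 to 0.46) and Gclc (−0.29 to 0.13). In D it did so for Gstt1 (−0.45 to 0.60) and Gclc (−0.14 to 0.29), and in E for Gstm5 (−0.14 to 0.14), Gpx1 (−0.02 to 1.09) and Gpx6 (−1.30 to 0.02). Gpx6 had the lowest mean CPM of the 10 in every group, at 0 to 114 counts per library, and an effect of depth on it was not tested.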
